A study of Mus musculus with 10 samples.

Results

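The genes described here are 44 genes that mark endothelial cells or set their subtype, the cells that line blood and lymphatic vessels. They were chosen by name and stand among 18193 genes that the array's annotation pairs with a probe set of a single symbol. Each gene was read at one probe set, a group of probes against one transcript, namely the set with the highest mean over all arrays. The data come from lungs of female C57BL/6 mice that were 8 weeks old at the start. In the arsenic group, 5 mice drank water with 50 ppm arsenic for 12 weeks; in the control group, 5 mice drank distilled deionized water. Each lung gave total RNA for 1 Affymetrix Mouse430_2 array, so each replicate is 1 animal. The series names the compound arsenate and the sample protocols name it arsenite. Every arsenic title carries the number 20 and every control title the number 4, with no meaning given, so whatever that number marks cannot be told apart from the exposure.

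Lung is among the most endothelial of organs, since its alveoli are wrapped in a dense capillary bed. Endothelial cells keep their identity through transcription factors of the SoxF, ETS and GATA families, and they read vascular endothelial growth factor (VEGF), angiopoietins and bone morphogenetic proteins (BMPs) through dedicated receptors. Arteries, capillaries and lymphatic vessels add genes of their own to this shared program. In pieces of whole lung, fewer endothelial cells and less of a transcript per cell cannot be told apart.

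Of the 44 genes, 41 lay above the dim-probe filter (a log2 value of 4.20, the median of the whole table) on all 10 arrays and were tested. Lung epithelial markers were likewise measured, 12 of 13 for alveolar type 2 cells and 13 of 13 for alveolar type 1 cells. Prox1, Gja5 and Sele lay under the filter on every array. No endothelial gene passed limma's test after adjustment over all 11332 genes tested (0 of 41 at an adjusted p under 0.05), and the smallest adjusted p was 0.134, for Gata2. Over all genes, 0.477% passed. At an unadjusted p under 0.05 there were 6 of the 41 (14.6%), beside 15.7% of all genes. Of these 6, 4 had higher levels in arsenic lungs (Sox18, Sox7, Gata2 and Gja4), where 10.6% of all genes did, and 2 had lower levels (Erg and Nrp1), where 5.13% did. Differences, on the log2 scale and as arsenic minus control throughout, ran between -0.46 for Bmpr2 and 0.68 for Sox18. The median of the 41 was 0.05, beside 0.06 over all genes. The difference was positive in 29 of the 41 (70.7%), beside 63.2% of all genes. The median size of the differences without their sign was 0.16 for the 41 genes and 0.13 for all genes. By these counts the endothelial genes lay close to the rest of the array.

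**Figure D1:**
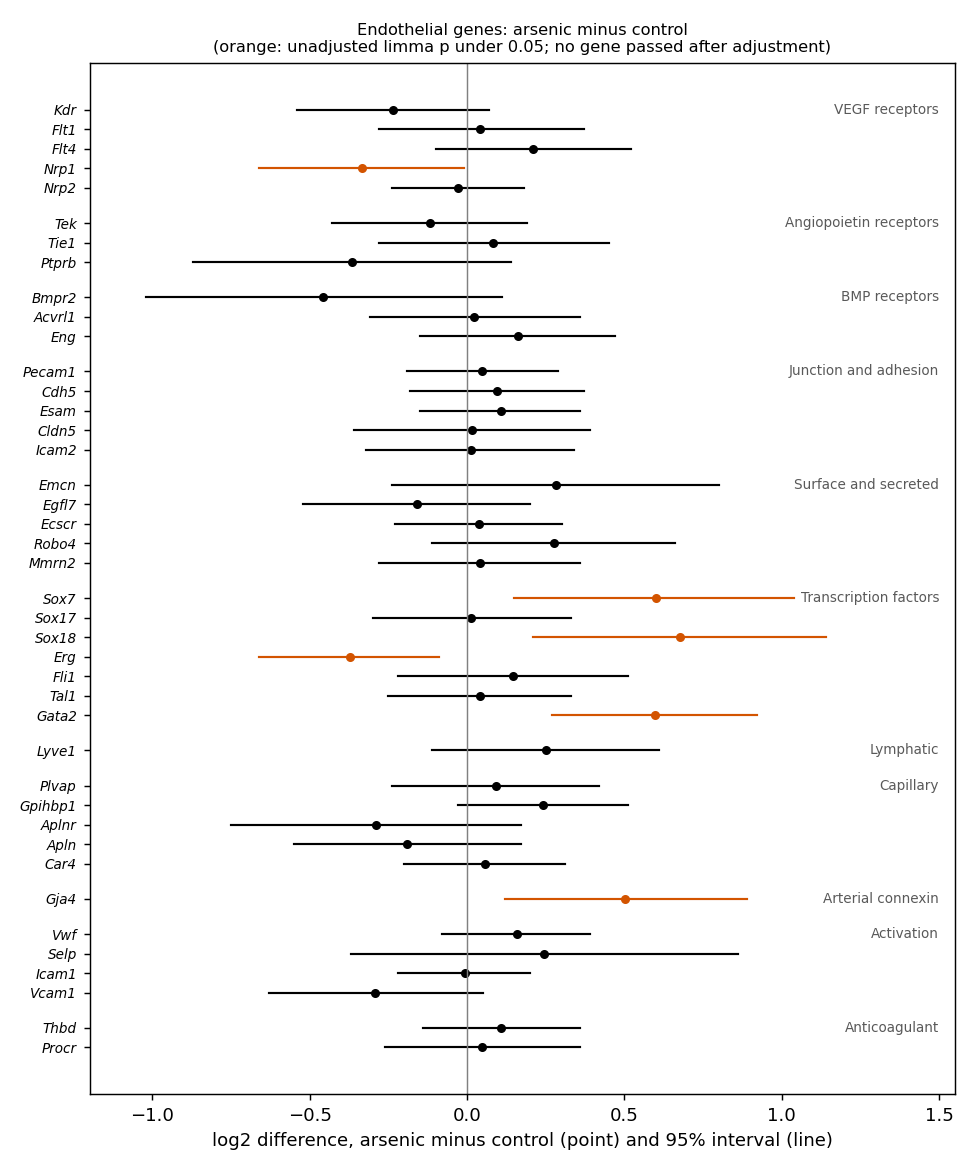
Log2 difference of each of the 41 tested endothelial genes, arsenic minus control, grouped by role (point: limma difference; line: its 95% interval; orange: unadjusted p under 0.05). Most intervals include 0, and the 6 that do not are those of Sox18, Sox7, Gata2, Gja4, Erg and Nrp1.

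The plot of differences by role shows that most intervals lie across 0, that 3 of the 4 highest points are transcription factors, and that the widest intervals on the lower side belong to Bmpr2 and Ptprb.

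Among the VEGF receptors, differences ran between -0.33 and 0.21 and no gene passed the adjusted test. Nrp1, the co-receptor that binds VEGF-A and class 3 semaphorins, had log2 values of 12.69, 12.08, 12.44, 12.80 and 12.46 in arsenic replicates 1 to 5, against 12.89, 12.78, 13.13, 12.85 and 12.50 in control replicates 1 to 5. All 5 arsenic values lay below the control mean, but arsenic replicates 1 and 4 overlapped the lower controls. The mean was 12.49 ± 0.27 in arsenic lungs and 12.83 ± 0.23 in control lungs (SD, n = 5 each). The difference was -0.33 ± 0.15 (SE), a fold of 0.793, with a limma p of 0.0446 before and 0.303 after adjustment. The other 3 Nrp1 probe sets differed by -0.47, -0.37 and -0.37, so all 4 had the same sign. Kdr, the main signalling receptor for VEGF-A, differed by -0.24 (95% interval -0.54 to 0.07). Flt1, a receptor that binds VEGF-A tightly and signals weakly, differed by 0.04 (-0.28 to 0.37), with a sign that varied among its probe sets. Flt4, the receptor for the lymphatic factors VEGF-C and VEGF-D, had a difference of 0.21 (-0.10 to 0.52), and all 5 arsenic values lay above the control mean. Nrp2, the co-receptor for VEGF-C, differed by -0.03 at the probe set used and by -0.17, -0.43 and -0.24 at its other 3. The set at -0.43 had a limma p of 0.00987 before and 0.184 after adjustment over all probe sets past the filter.

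The ligands and guidance cues of these receptors gave no call either. Of 14 ligands listed, 13 were tested and 0 passed the adjusted test, with 1 higher and 1 lower at an unadjusted p under 0.05 and a median of -0.01. Over all genes, 10.6% were higher and 5.13% lower at that threshold. Counts of this and the other lists are to be read beside those shares. Vegfc, a ligand of Flt4, averaged 10.37 ± 0.26 in arsenic lungs and 10.05 ± 0.18 in control lungs (adjusted p = 0.285). Pdgfb, by which endothelial cells recruit pericytes, averaged 10.18 ± 0.19 in arsenic lungs and 10.50 ± 0.23 in control lungs (adjusted p = 0.264). Sema3c, a semaphorin that binds neuropilins, differed by -0.47 (adjusted p = 0.344), and Vegfa by -0.19 (adjusted p = 0.391).

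The angiopoietin pathway was read through Tek, the receptor itself, Tie1, its partner without a well-defined ligand, and Ptprb, the phosphatase that acts on Tek and on VE-cadherin. Ptprb had values of 12.38, 11.64, 12.20, 12.85 and 12.08 in arsenic lungs, against 12.36, 12.40, 13.16, 12.78 and 12.29 in control lungs. The groups overlapped widely, since arsenic replicate 4 lay above 4 of the 5 controls. Its difference was -0.37 (95% interval -0.87 to 0.14, adjusted p = 0.441), and its other 2 probe sets had the same sign. Tek differed by -0.12 (-0.43 to 0.19) and Tie1 by 0.08 (-0.28 to 0.45).

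Bmpr2 is the type II BMP receptor whose loss in people underlies much heritable pulmonary arterial hypertension. Its values were 12.61, 11.72, 11.95, 12.98 and 11.92 in arsenic lungs, against 12.42, 12.69, 13.20, 12.89 and 12.28 in control lungs. Arsenic replicates 2, 3 and 5 lay below every control, while replicates 1 and 4 lay among them. The difference, -0.46 ± 0.26 (SE), had a 95% interval of -1.02 to 0.11 and an adjusted p of 0.401. Its 3 probe sets did not share a sign, at -0.46, 0.15 and -0.65. Acvrl1, the type I receptor for circulating BMP ligands, differed by 0.02, and Eng, the co-receptor endoglin, by 0.16 at the probe set used and 0.32 at its other.

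Genes around these receptors were taken as a list of 29 BMP and TGF-β ligands, receptors and mediators, of which 26 were tested. None passed the adjusted test. At an unadjusted p under 0.05, 2 were higher and 5 lower, beside 10.6% and 5.13% of all genes. The list median was 0.03. The 4 with the smallest p were Acvr2a, another type II receptor, at -0.69 (adjusted p = 0.255), Tgfb2 at -0.44, Bmp5 at -0.36 and the mediator Smad5 at -0.18.

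Differences were smallest among the junction genes. Pecam1, Cdh5 (VE-cadherin), Esam, Cldn5 (claudin of endothelial tight junctions) and Icam2 hold endothelial cells to each other, and their differences lay between 0.01 and 0.11. Their 95% intervals together reached no further than -0.36 and 0.39. Esam, which had the smallest p of them, read 12.83, 12.98, 12.69, 12.98 and 13.22 in arsenic lungs, against 12.81, 13.02, 12.83, 12.55 and 12.93 in control lungs. These ranges lay largely on top of each other (adjusted p = 0.648). Cdh5 averaged 10.93 ± 0.14 in arsenic lungs and 10.83 ± 0.26 in control lungs, and Pecam1 12.73 ± 0.16 in arsenic lungs and 12.68 ± 0.18 in control lungs.

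Among surface and secreted endothelial proteins, Robo4, a roundabout receptor that stabilises vessels, had the smallest p. Robo4 read 8.84, 9.19, 8.63, 9.01 and 9.39 in arsenic lungs, against 8.59, 9.04, 8.99, 8.28 and 8.79 in control lungs. Its groups overlapped, and the difference was 0.28 (95% interval -0.11 to 0.66, adjusted p = 0.444). Emcn, the sialomucin endomucin, differed by 0.28 with a wide control spread (10.53 ± 0.22 in arsenic lungs, 10.25 ± 0.55 in control lungs). Egfl7, a protein that endothelial cells secrete into the matrix around them, differed by -0.16, and its 4 probe sets all had negative differences, the others at -0.19, -0.29 and -0.45. Ecscr, a regulator of endothelial migration, differed by 0.04, and the matrix protein Mmrn2 likewise by 0.04.

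**Figure D2:**
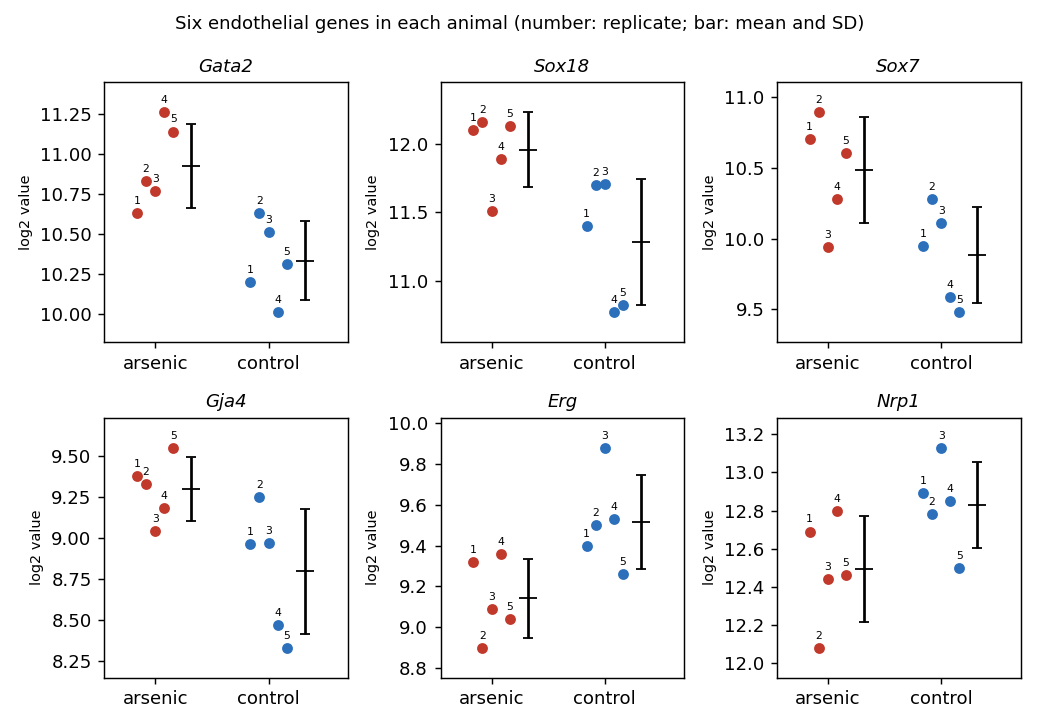
Log2 value in each animal of the 6 endothelial genes with an unadjusted p under 0.05 (point: 1 animal, numbered by replicate; bar: mean and SD of 5; each panel has its own log2 axis). Only Gata2 has every arsenic value above every control value, by 0.0029; in the other panels the ranges overlap.

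Transcription factors made up 4 of the 6 genes at an unadjusted p under 0.05. There were 7 in all, of which 0 passed the adjusted threshold. Gata2, a zinc-finger factor of endothelial cells and of blood cell lineages such as mast cells and megakaryocytes, read 10.63, 10.83, 10.77, 11.26 and 11.14 in arsenic lungs, against 10.20, 10.63, 10.51, 10.01 and 10.31 in control lungs. As the plot of single animals shows, the groups did not overlap, but the lowest arsenic value and the highest control value were only 0.0029 apart, and with each array centred on its median the groups overlapped. Gata2 was the 1 endothelial gene whose groups did not overlap, where 3.63% of all genes had groups that did not, 2.82% in the upward direction. Its mean was 10.93 ± 0.26 in arsenic lungs and 10.33 ± 0.25 in control lungs (SD, n = 5 each). The difference was 0.60 ± 0.15 (SE), a fold of 1.51 with a 95% interval of 0.27 to 0.92 on the log2 scale, at a limma p of 0.00215 before and 0.134 after adjustment. A second Gata2 probe set differed by 0.58.

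Transcripts of other cells that use Gata2 were read in the same arrays. Of 12 mast cell markers, 2 passed the filter, and Cpa3, Cma1, Mcpt4, Tpsb2 and Tpsab1, the proteases that define those cells, lay under it in both groups. Platelet and megakaryocyte markers passed in 10 of 14 cases. All 10 differences were positive, beside 63.2% of all genes, with a median of 0.25. At an unadjusted p under 0.05, 2 were higher (Itga2b at 0.33 and Clec1b at 0.27), as were 10.6% of all genes. The mean level of the 10 ranged over 7.60 to 7.93 in arsenic lungs and 7.33 to 7.72 in control lungs. The part of platelet RNA in the Gata2 difference was not tested.

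Sox18 and Sox7 belong to the SoxF family, which acts in arterial and lymphatic specification. Sox18 read 12.10, 12.16, 11.51, 11.89 and 12.13 in arsenic lungs, against 11.40, 11.70, 11.71, 10.77 and 10.82 in control lungs. In every arsenic lung it lay above the control mean, and only replicate 3 fell within the control range. Its difference was 0.68 ± 0.21 (SE), a fold of 1.60, at a limma p of 0.00877 before and 0.205 after adjustment. Sox7 read 10.70, 10.89, 9.94, 10.28 and 10.60 in arsenic lungs, against 9.95, 10.28, 10.11, 9.59 and 9.48 in control lungs. Here replicate 3 of the arsenic group lay below 3 of the controls, and replicate 4 equalled the highest control to 2 decimals. The Sox7 difference was 0.60 ± 0.20 (SE), a fold of 1.52, at a limma p of 0.0129 before and 0.223 after adjustment. Sox17, the third factor of the family, averaged 10.69 ± 0.25 in arsenic lungs and 10.68 ± 0.23 in control lungs, a difference of 0.01 with a 95% interval of -0.30 to 0.33. Control replicates 4 and 5 had the lowest values of the group for both Sox18 and Sox7.

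Erg, an ETS factor that maintains endothelial identity, had lower values in arsenic lungs. Its values were 9.32, 8.90, 9.09, 9.36 and 9.04 in arsenic lungs, against 9.40, 9.50, 9.88, 9.53 and 9.26 in control lungs. All 5 arsenic values lay below the control mean, and the overlap came from control replicate 5, which lay below arsenic replicates 1 and 4. The difference was -0.37 ± 0.13 (SE), a fold of 0.773, at a limma p of 0.0152 before and 0.235 after adjustment. Fli1, its ETS relative, differed by 0.15 (-0.22 to 0.51) and Tal1, a basic helix-loop-helix factor of endothelial and blood progenitors, by 0.04 (-0.25 to 0.33).

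Promoters are given for 3 of the 6 genes with an unadjusted p under 0.05, since GATA and ETS factors act on endothelial promoters and members of both families are in the list. The table (build GRCm38.p6) covers 250 bases before to 50 bases after a start. It had windows for 25 of the 44 genes, 32 in all. Both strands were searched for an ETS-type motif, CAGGAAG. It was in 13.3% of all 32851 windows and in 7 of the 32 (21.9%), which belong to Apln, Egfl7, Emcn, Erg, Robo4 and Sele. Both strands were likewise searched for a GATA-type motif, AGATAAG. It was in 3.04% of all windows and in 2 of the 32 (6.25%), those of Erg and Tek. Where one motif directly follows the other they can share 2 letters, which is not the case in the Erg window shown. A match is a description of letters and not a site. Shown are both starts of Gata2, on the plus strand at chr6:88193641-88193940 and chr6:88198414-88198713, the start of Gja4, on the minus strand at chr4:127313990-127314289, and the one of 3 Erg starts that holds both motifs, on the minus strand at chr16:95459299-95459598. All run 5′ to 3′ along the gene, in lower case. Capitals mark the matches in Erg, where both lie on the opposite strand and so read as CTTATCT for the GATA type and CTTCCTG for the ETS type. The other windows shown hold neither string, nor does the window of Nrp1, which is in the table and is not printed.
Gata2, first start: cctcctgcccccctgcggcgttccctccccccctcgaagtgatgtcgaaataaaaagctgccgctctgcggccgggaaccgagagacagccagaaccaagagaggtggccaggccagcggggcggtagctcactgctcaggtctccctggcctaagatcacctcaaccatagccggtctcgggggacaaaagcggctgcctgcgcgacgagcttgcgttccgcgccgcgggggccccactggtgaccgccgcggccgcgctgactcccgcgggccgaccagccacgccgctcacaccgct
Gata2, second start: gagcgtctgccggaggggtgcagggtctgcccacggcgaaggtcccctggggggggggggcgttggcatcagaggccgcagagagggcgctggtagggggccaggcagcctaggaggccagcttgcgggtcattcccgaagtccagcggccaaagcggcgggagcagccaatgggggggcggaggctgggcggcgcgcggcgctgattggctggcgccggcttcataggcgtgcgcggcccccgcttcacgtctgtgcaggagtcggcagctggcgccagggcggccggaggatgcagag
Gja4: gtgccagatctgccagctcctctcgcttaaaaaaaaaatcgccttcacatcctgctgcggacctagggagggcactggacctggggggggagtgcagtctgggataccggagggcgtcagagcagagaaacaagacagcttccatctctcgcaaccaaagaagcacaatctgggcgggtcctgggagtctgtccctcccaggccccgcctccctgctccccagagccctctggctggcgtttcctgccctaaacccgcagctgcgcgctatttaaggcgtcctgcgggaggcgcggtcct
Erg: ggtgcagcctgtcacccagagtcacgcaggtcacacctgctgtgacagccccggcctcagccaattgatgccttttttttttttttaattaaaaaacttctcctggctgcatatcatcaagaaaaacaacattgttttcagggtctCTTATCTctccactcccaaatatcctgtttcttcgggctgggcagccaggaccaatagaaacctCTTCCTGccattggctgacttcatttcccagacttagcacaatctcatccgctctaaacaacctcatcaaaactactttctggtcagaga

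Genes of vessel subtypes were few, and 1 of them was among the 6. Gja4, the connexin of gap junctions between arterial endothelial cells, read 9.38, 9.33, 9.04, 9.18 and 9.55 in arsenic lungs, against 8.96, 9.25, 8.97, 8.47 and 8.33 in control lungs. Arsenic values all lay above the control mean, and control replicate 2 lay above arsenic replicates 3 and 4. The mean was 9.30 ± 0.20 in arsenic lungs and 8.80 ± 0.38 in control lungs (SD, n = 5 each). Its difference was 0.50 ± 0.17 (SE), a fold of 1.42, at a limma p of 0.0155 before and 0.235 after adjustment. Gja5, the other arterial connexin, stayed under the filter, at 3.14 ± 0.22 in arsenic lungs and 3.23 ± 0.19 in control lungs.

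Lymphatic identity was covered by Lyve1, a hyaluronan receptor also found on some lung macrophages, and by Prox1, the master factor of lymphatic endothelium. Lyve1 read 12.96, 12.68, 12.63, 12.93 and 13.17 in arsenic lungs, against 12.68, 12.47, 13.16, 12.52 and 12.29 in control lungs. Control replicate 3 reached the top of the arsenic range, and the difference of 0.25 had a 95% interval of -0.11 to 0.61 (adjusted p = 0.454). Prox1 stayed under the filter, at 2.84 ± 0.06 in arsenic lungs and 2.90 ± 0.05 in control lungs. Macrophage and monocyte markers, beside which Lyve1 has to be read, were tested in 15 of 17 cases. Of these, 4 were higher at an unadjusted p under 0.05, as were 10.6% of all genes. There were 0 past the adjusted threshold, and the median was 0.15. The part of macrophages and monocytes in the Lyve1 difference was not tested.

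Capillary genes gave no call. Gpihbp1, which carries lipoprotein lipase to the capillary lumen, read 12.52, 12.76, 12.53, 12.73 and 13.03 in arsenic lungs, against 12.43, 12.71, 12.50, 12.16 and 12.58 in control lungs. The arsenic values all lay above the control mean, with the 2 lowest inside the control range, and the difference was 0.24 (95% interval -0.03 to 0.51, adjusted p = 0.373). Apln and its receptor Aplnr, which in mouse lung mark different capillary cells, had differences of -0.19 (-0.55 to 0.17) and -0.29 (-0.75 to 0.17). Car4, a carbonic anhydrase of the alveolar capillary cells that face the airspace, differed by 0.06 (-0.20 to 0.31), and Plvap, the diaphragm protein of fenestrae and caveolae, by 0.09 (-0.24 to 0.42).

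Genes of endothelial activation stood on both sides of 0. Vcam1, by which leukocytes bind to inflamed vessels, read 10.75, 10.12, 10.06, 10.60 and 10.61 in arsenic lungs, against 10.38, 10.80, 10.77, 10.79 and 10.86 in control lungs. The arsenic values lay below 4 of the controls and straddled the fifth. Its difference was -0.29 (95% interval -0.63 to 0.05, adjusted p = 0.376), and of its other 2 probe sets 1 differed by -0.26 and 1 by 0.02. Icam1, which in lung is also made by the alveolar epithelium, averaged 13.30 ± 0.17 in arsenic lungs and 13.31 ± 0.10 in control lungs. Selp, the P-selectin of endothelial and platelet granules, averaged 5.95 ± 0.70 in arsenic lungs and 5.70 ± 0.14 in control lungs. The arsenic spread came mainly from replicate 3, at 7.09, and without it the difference of 0.24 became -0.04. Vwf, the platelet-binding protein of the same granules, differed by 0.16 (-0.08 to 0.39). Sele, the E-selectin induced by cytokines, stayed under the filter, at 2.48 ± 0.06 in arsenic lungs and 2.52 ± 0.04 in control lungs.

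The 2 anticoagulant genes were close to equal. Thbd, thrombomodulin, read 13.68, 13.60, 13.56, 13.81 and 13.92 in arsenic lungs, against 13.57, 13.77, 13.88, 13.39 and 13.43 in control lungs. The ranges overlapped, though control replicates 4 and 5 lay below every arsenic value, and the difference was 0.11 (-0.14 to 0.36). Procr, the endothelial protein C receptor, differed by 0.05 (-0.26 to 0.36). Of 18 genes of coagulation and fibrinolysis, 10 were tested, and 0 passed at either threshold by limma, with a median of 0.11.

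Most genes with more than 1 probe set past the filter gave the same sign throughout. Of 81 probe sets for the 44 genes, 72 passed the filter, and 18 genes had several. In 14 of the 18 every probe set shared a sign, and in 4 (Bmpr2, Flt1, Mmrn2 and Vcam1) they did not. Sox18, Sox7, Gja4 and Erg each had a single probe set past the filter, so their differences could not be compared between sets.

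**Figure D3:**
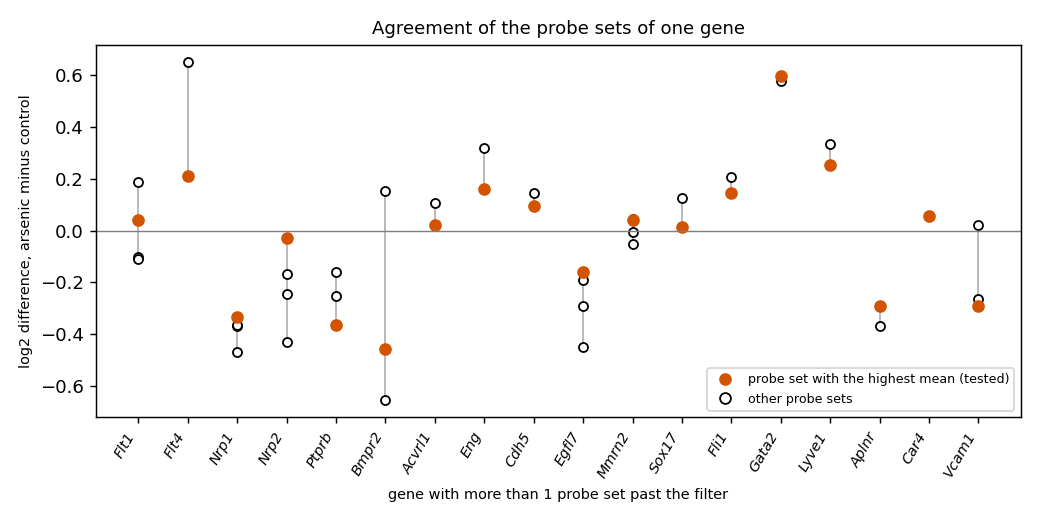
Log2 difference, arsenic minus control, of every probe set past the filter for the 18 endothelial genes with more than 1 (filled: the set used; open: the others). The 2 Gata2 sets lie together near 0.6, the 4 Nrp1 sets between -0.47 and -0.33, and the Bmpr2 sets on both sides of 0.

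In the plot of probe sets, all sets of Gata2 lie above 0 and all of Nrp1 below it, while those of Flt4 and Bmpr2 are spread wide.

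Single lungs differed in their endothelial level by more than the groups did. The 41 genes averaged 11.11, 11.05, 10.90, 11.20 and 11.29 in arsenic replicates 1 to 5, against 11.00, 11.25, 11.22, 10.86 and 10.93 in control replicates 1 to 5. The spread within each group was wider than the distance between the group means, 0.06. In arsenic replicate 3 only 3 of the 41 genes lay above their arsenic mean, and in control replicate 4 only 9 lay above their control mean. By contrast 36 did so in arsenic replicate 5 and in control replicate 3, and 34 in control replicate 2.

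**Figure D4:**
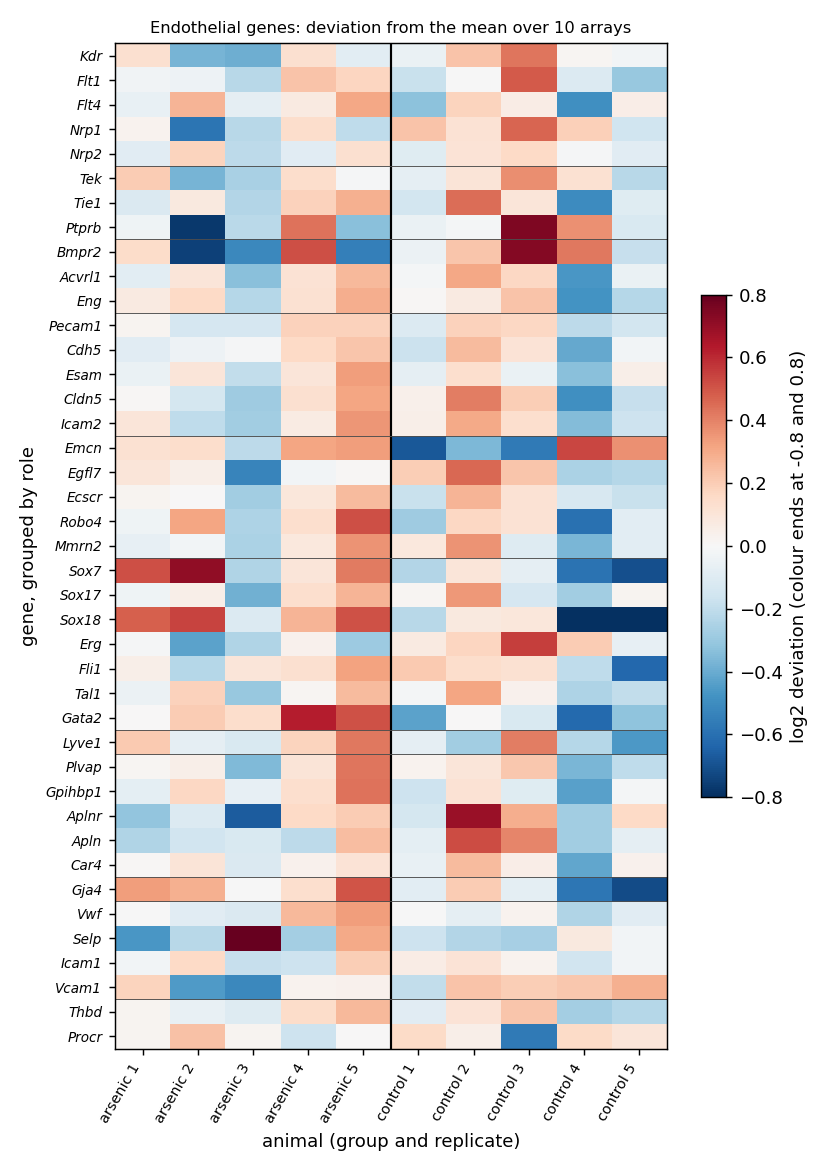
Deviation of each of the 41 endothelial genes in each animal from its mean over 10 arrays (log2 units, colour ends at -0.8 and 0.8; rows grouped by role). Whole columns run low in arsenic replicate 3 and control replicate 4 and high in arsenic replicate 5 and control replicate 2, and Sox7, Sox18, Gata2 and Gja4 stand out as rows that are higher on the arsenic side.

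The heat map shows both features at once. In some animals most endothelial genes were low or high together, and a few rows are higher on the arsenic side. Of those rows, only Gata2 had groups that did not overlap. A further 39 endothelial genes that are not among the 44 followed the same animals. They averaged 10.73, 10.62, 10.55, 10.85 and 10.90 in arsenic lungs, against 10.66, 10.87, 10.89, 10.56 and 10.53 in control lungs. Within each group the 2 animals with the highest level were the same for both lists. None of the 39 passed the adjusted test, with 3 higher and 4 lower at an unadjusted p under 0.05. Those with the smallest p were Rasgrp3, an activator of Ras family proteins, at -0.57, the sphingosine receptor S1pr1 at 0.42, Grrp1 at 0.81 and Myct1 at -0.41 (adjusted p = 0.193 to 0.199). With the level of these 39 genes as a covariate, Gata2 differed by 0.56, Sox18 by 0.62, Sox7 by 0.56, Gja4 by 0.46, Erg by -0.39 and Nrp1 by -0.36. The smallest adjusted p was then 0.0539, for Gata2, and still 0 of the 41 passed.

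Transcripts of other organs varied between the same lungs. Heart genes, 10 of 14 tested, averaged 8.27, 8.84, 10.07, 9.23 and 6.89 in arsenic lungs, against 9.17, 7.45, 9.21, 9.92 and 9.17 in control lungs. They were highest in arsenic replicate 3 and control replicate 4, where the endothelial genes were lowest, and lowest in arsenic replicate 5 and control replicate 2. Not every animal kept that inverse order. Control replicate 3 had a high endothelial level, 11.22, with a heart level of 9.21, and arsenic replicate 4 had 11.20 with 9.23. Differences with the heart level as a covariate were 0.56 for Gata2, 0.60 for Sox18, 0.53 for Sox7, 0.43 for Gja4, -0.37 for Erg and -0.33 for Nrp1. Without arsenic replicate 3 and control replicate 4 together, 5 of the 41 genes (12.2%) had an unadjusted p under 0.05, beside 11.7% of all genes. All 5 were higher. With those 2 arrays left out Erg differed by -0.36 and Nrp1 by -0.32, close to their values over all arrays, and neither passed that threshold.

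Kidney genes, 13 of 30 tested, averaged 7.61, 7.27, 7.66, 8.70 and 6.92 in arsenic lungs, against 5.43, 6.54, 6.95, 7.95 and 6.36 in control lungs. Of the 13, 5 were higher at an unadjusted p under 0.05, as were 10.6% of all genes, and 0 passed after adjustment. Those with the smallest p were Fxyd2 at 1.82, Cdh16 at 0.59, Slc22a12 at 1.08 and Umod at 2.26. Umod, made by the loop of Henle, averaged 8.72 ± 1.19 in arsenic lungs and 6.46 ± 2.04 in control lungs. Nphs1 of podocytes, Aqp2 of collecting ducts and Slc12a3 of distal tubules lay under the filter in both groups. Aqp3, another collecting duct gene of the list, passed the filter, at 4.69 ± 1.11 in arsenic lungs and 4.84 ± 0.98 in control lungs. With the kidney level as a covariate, 10 of the 41 endothelial genes had an unadjusted p under 0.05, 5 higher and 5 lower, where 26.6% of all genes did, and 0 passed after adjustment. In that fit Bmpr2 differed by -0.85, Ptprb by -0.71, Erg by -0.51 and Nrp1 by -0.45. Sox18 differed by 0.84, Sox7 by 0.75, Gja4 by 0.66 and Gata2 by 0.59. Emcn differed by 0.03, where it had differed by 0.28, and Flt1 and Icam1 changed sign. The kidney level itself averaged 7.63 in arsenic lungs and 6.65 in control lungs, so this fit cannot fully separate it from the exposure.

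**Figure D5:**
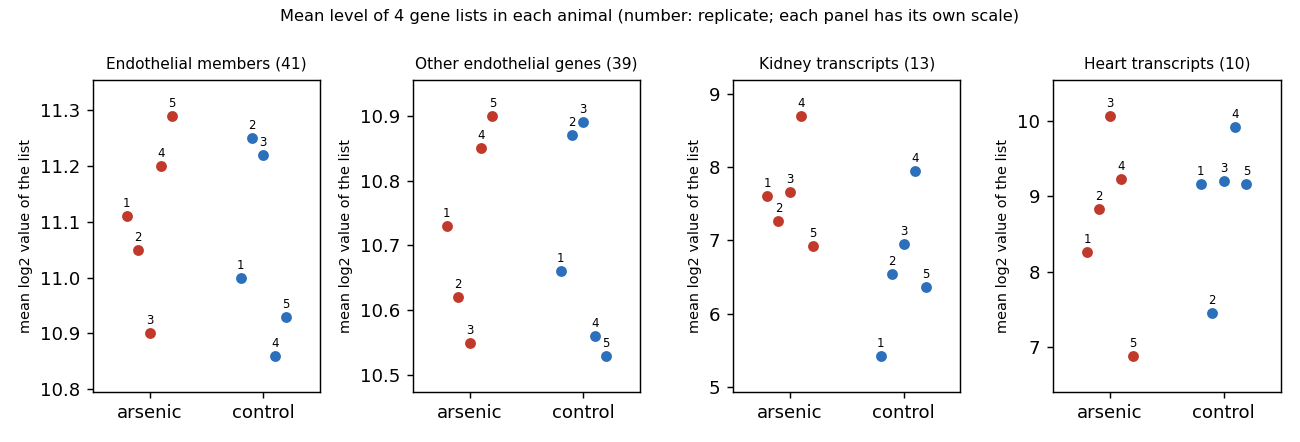
Mean log2 level in each animal of the 41 tested endothelial genes, 39 other endothelial genes, 13 kidney genes and 10 heart genes (point: 1 animal, numbered by replicate; each panel has its own axis). Both endothelial panels overlap between groups, the heart panel has arsenic replicate 3 and control replicate 4 at its top, and the kidney panel lies higher in arsenic lungs with overlap.

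The plot of list levels sets these 4 lists side by side, and in none of them do the groups separate. Among other cells, the larger medians were those of macrophages and monocytes (0.15), platelets and megakaryocytes (0.25), erythroid cells (0.33) and mesothelium (-0.39). Of 12 erythroid genes only 2 were tested, and with no filter on dim probe sets the erythroid median was -0.013. At an unadjusted p under 0.05, 1 of the 2 was higher, as were 10.6% of all genes. Medians of 4 further lists were smaller. The median difference was -0.05 for 12 alveolar type 2 genes, -0.01 for 13 alveolar type 1 genes, 0.03 for 14 smooth muscle and pericyte genes and -0.08 for 15 fibroblast genes, each with 0 past the adjusted threshold by limma. The signal of the 3′ over the 5′ control probe sets of Actb, which grows as RNA is broken down, was 0.50 to 0.70 in arsenic lungs and 0.58 to 0.65 in control lungs.

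Genes through which endothelium senses flow and sets vessel tone were listed as well. Of 15 listed, 14 were tested, and 1 rose and 2 fell at an adjusted p under 0.05. Over all genes, 0.477% passed. At an unadjusted p under 0.05, 3 were higher and 3 lower, beside 10.6% and 5.13% of all genes. The difference was positive in 10 of the 14 (71.4%), beside 63.2% of all genes, with a median of 0.20 beside 0.06. This list was chosen with earlier results of these data known, so its counts are a description and were not tested. Adm, the vasodilator adrenomedullin, read 8.12, 8.42, 8.44, 8.37 and 8.47 in arsenic lungs, against 7.29, 7.68, 7.93, 7.43 and 7.55 in control lungs. It averaged 8.36 ± 0.14 in arsenic lungs and 7.57 ± 0.25 in control lungs and rose by 0.79 (adjusted p = 0.0260). Klf2, a factor induced by laminar flow, read 11.60, 12.01, 12.09, 12.13 and 12.23 in arsenic lungs, against 12.68, 13.29, 12.89, 12.51 and 13.08 in control lungs. It averaged 12.01 ± 0.24 in arsenic lungs and 12.89 ± 0.31 in control lungs and fell by 0.88 (adjusted p = 0.0483). Klf4, its relative, read 13.26, 13.12, 13.12, 13.25 and 13.19 in arsenic lungs, against 13.57, 13.99, 13.66, 13.57 and 13.90 in control lungs. It averaged 13.19 ± 0.07 in arsenic lungs and 13.74 ± 0.20 in control lungs and fell by 0.55 (adjusted p = 0.0443). In none of the 3 did the groups overlap, as was so for 3.63% of all genes, but the calls lay close to the threshold. Leaving out any single array ended those of Klf2 (adjusted p = 0.0501 to 0.143) and Klf4 (0.0575 to 0.136), while that of Adm held in 3 of 10 cases, without arsenic replicate 1, control replicate 2 or control replicate 3 (adjusted p = 0.0186 to 0.0998 over the 10). The differences then stayed within 0.72 to 0.88 for Adm, -0.97 to -0.77 for Klf2 and -0.59 to -0.49 for Klf4. With the kidney level as a covariate none of the 3 was called (adjusted p = 0.0726 for Adm, 0.0847 for Klf2 and 0.0760 for Klf4). The same held with no filter on dim probe sets (adjusted p = 0.0564, 0.107 and 0.0734 for Adm, Klf2 and Klf4). With the mean of kept probe sets Adm was called, while Klf2 and Klf4 were not (adjusted p = 0.0129, 0.0515 and 0.101). At the probe set with the largest SD Klf4 alone of the 3 was not called (0.164). With every probe set fitted on its own Klf2 alone was not called (0.0536). None of these genes is restricted to endothelium, and the lung cells behind them were not resolved here. Leukocyte adhesion and NF-κB genes, 17 of 25 tested, gave 0 calls, 3 higher and 2 lower at an unadjusted p under 0.05 and a median of 0.05. Those with the smallest p were the apoptosis inhibitor Birc3 at 0.23, the adaptor Traf1 at 0.50, the cytokine Il1b at -0.94 and the integrin Itga4 at -0.45 (adjusted p = 0.178 to 0.292).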

How the data were processed

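Lung RNA was isolated with Trizol and a Qiagen clean-up, per the labels' protocols. The table deposited by the authors gives log2 values of 45101 probe sets for 10 arrays. The submitters' processing notes name GCRMA, which corrects background by probe sequence and summarises probes, and its version is not given in the sources used here. The log2 scale was read from the range of the values, 0.619 to 16.3. Array medians were 4.11 to 4.26. Scanner files were not used here. GCRMA draws dim probe sets to a common floor, so differences of dim genes can be understated.

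Groups came from the titles. The treatment field of control replicate 4 gives no dose. In the platform annotation 34958 probe sets had 1 symbol, 932 several and 9211 were not listed; Entrez identifiers matched 34754 of the first to RefSeq and changed 0 symbols. Control probe sets were left out. A probe set was kept if it exceeded 4.20 on at least 5 arrays, and the kept set with the highest mean stood for its gene, which gave 11332 genes. Fits used limma 3.58.1 under R 4.3.3 (lmFit, then eBayes, with 2.82 prior degrees of freedom), without covariates, with Benjamini-Hochberg adjustment over all genes. The procedure was tested on simulated data in which genes varied independently of each other, unlike the endothelial genes of these lungs. Figures were drawn with matplotlib 3.10.9. The number of arrays limits the precision.

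The 44 genes and all lists were chosen with earlier results of these data known, so no list was tested. Of the 44, every animal's value is given for genes past the adjusted threshold or with groups that do not overlap and for the gene with the smallest p in each role. It is given also, chosen after their values were seen, for Sox18, Sox7, Erg, Adm, Klf2 and Klf4. Of other lists, genes are named from the 4 with the smallest p. Nphs1, Aqp2, Slc12a3 and the mast cell proteases were named as markers under the filter, and Aqp3 was named beside Aqp2. Alternatives changed the filter, the probe set rule, the normalization, the eBayes prior, the covariates and the arrays. Chosen after seeing the data were 3 of them, the heart level and the level of other endothelial genes as covariates, and leaving out arsenic replicate 3 with control replicate 4.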

Additional observations from a re-analysis of the deposited data

Results flagged for a closer look

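In each endothelial gene and group, the distance of the highest or lowest animal to its nearest neighbour was set against the group's range (Dixon's criterion, above 0.71 for 5 animals). Of 82 gene and group combinations, 4 passed it, where chance gives about 1 in 20. Egfl7 in arsenic replicate 3 was 11.14, with the other arsenic lungs at 11.65 to 11.77. Apln in arsenic replicate 5 was 9.21, with the other arsenic lungs at 8.72 to 8.84. Vcam1 in control replicate 1 was 10.38, with the other controls at 10.77 to 10.86. Procr in control replicate 3 was 6.76, with the other controls at 7.37 to 7.48. Without the animal named, the difference, arsenic minus control, was -0.05 for Egfl7 (-0.16 over all arrays), -0.28 for Apln (-0.19), -0.38 for Vcam1 (-0.29) and -0.09 for Procr (0.05). None of the 4 was called with or without it.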

How the results depend on the processing

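Among the 44 genes, none passed the adjusted test in any alternative run, nor at an adjusted p under 0.1 in the primary fit. The number at an unadjusted p under 0.05 was 10 with the kidney level as covariate (7 genes called over the array, against 54), and 5 to 8 otherwise. Over all genes the share at that threshold was 26.6% with the kidney level and 9.95% to 20.9% otherwise. The number with groups that do not overlap was 2 at the probe set with the largest SD, where 3.84% of all genes had such groups. It was 0 after centring each array on its median (Gata2's gap is 0.0029), beside 3.2% of all genes. It was 2 without arsenic 4 and control 2, beside 10.3% of all genes, and 3 without arsenic 3 and control 4, beside 7.21%. Leaving out single arrays gave 1 to 3, beside 3.99% to 6.47% of all genes, and fewer arrays make separation easier. Replicate numbers do not pair the animals (correlations of same-numbered lungs -0.33 to 0.25); with the replicate block, 0 endothelial genes were called, 6 had an unadjusted p under 0.05, and 5 genes passed over the array; Adm, Klf2 and Klf4 did not (adjusted p = 0.0621, 0.0769 and 0.126). Signs changed for the genes below, none of them called. Most lay near 0 over all arrays, apart from Vcam1 (-0.29) and Selp (0.24), and the cause was not tested. With array weights the values were -0.048 for Acvrl1, -0.046 for Cldn5, -0.026 for Icam2, -0.029 for Mmrn2, -0.031 for Sox17 and -0.017 for Tal1. With median centring they were -0.018 for Acvrl1, -0.024 for Cldn5, -0.026 for Icam2 and -0.025 for Sox17, and with quantile normalization -0.016 for Cldn5, -0.009 for Icam2 and -0.002 for Sox17. At the probe set with the largest SD they were -0.102 for Flt1, -0.050 for Mmrn2 and 0.023 for Vcam1, and with the kidney level -0.045 for Flt1 and 0.116 for Icam1. With the heart level they were -0.040 for Acvrl1, -0.057 for Cldn5, -0.054 for Icam2, -0.011 for Ecscr, -0.025 for Mmrn2, -0.050 for Sox17 and -0.015 for Tal1. With the level of other endothelial genes they were -0.015 for Acvrl1, -0.032 for Cldn5, -0.027 for Icam2 and -0.013 for Sox17. Without arsenic 4 and control 2 they were -0.005 for Flt1, 0.015 for Nrp2 and 0.059 for Icam1, and without arsenic 3 and control 4 they were 0.012 for Nrp2, -0.006 for Acvrl1, -0.034 for Cldn5, -0.002 for Icam2 and -0.005 for Car4. Leaving out single arrays gave -0.029 to 0.169 for Flt1, -0.078 to 0.019 for Nrp2, -0.034 to 0.203 for Tie1, -0.092 to 0.107 for Acvrl1, -0.107 to 0.118 for Cldn5, -0.075 to 0.090 for Icam2, -0.021 to 0.111 for Ecscr, -0.045 to 0.136 for Mmrn2, -0.055 to 0.111 for Sox17, -0.017 to 0.126 for Tal1, -0.002 to 0.193 for Plvap, -0.041 to 0.125 for Car4, -0.041 to 0.390 for Selp, -0.056 to 0.039 for Icam1 and -0.087 to 0.097 for Procr.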

Other observations

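Lists of cells that lie beside the vessels, or that a lung sample can carry along, were read in the same fit. Mesothelial genes, which mark the covering of the lung, were tested in 8 of 9 cases, with a median difference of -0.39, arsenic minus control, and 0 past the adjusted threshold or an unadjusted p under 0.05 by limma. Their mean level ranged over 7.73 to 10.21 in arsenic lungs and 8.60 to 10.12 in control lungs. Adipose genes, 10 of 14 tested, had a median of 0.12, with 3 higher and 1 lower at an unadjusted p under 0.05 and 0 past the adjusted threshold. Their mean level ranged over 8.13 to 10.37 in arsenic lungs and 8.02 to 9.60 in control lungs. Lymphocyte genes, 10 of 16 tested, had a median of 0.06, with 0 past either threshold. Among fibroblast genes Col3a1, a fibrillar collagen, differed by -0.39 (adjusted p = 0.0841). Of the 15 tested, 12 had negative differences, where 63.2% of all genes had positive ones.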
